A study of Homo sapiens with 60 samples.

Results

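Heme oxygenase 1 (HMOX1) and 9 further genes of heme and iron handling were followed in A549 cells treated with 6 herbal water extracts or with wortmannin. The genes, 10 of the 60675 listed, were taken by name with earlier results of these data known. All 10 were among the 17368 genes that passed a filter on low counts. HMOX1 had itself been picked for being lower with wortmannin and higher with Polygalae, Aucklandiae and Schisandrae, so its values are a description and no test is given for it. The 9 others are BLVRA, BLVRB, FTL, FTH1, TFRC, SLC40A1, SLC48A1, FECH and ALAS1.

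A549 is an established human lung adenocarcinoma line, and all 60 libraries are from this line after 24 h of treatment. The treated groups were wortmannin at 10 µM, an inhibitor of phosphoinositide 3-kinases, and hot-water extracts at 20, 100 or 500 µg/mL of Polygalae Radix (Polygalae), Aucklandiae Radix (Aucklandiae), Schisandrae Fructus (Schisandrae), Zizyphi Semen (Zizyphi), Longan Arillus (Longan) and Liriopis seu Ophiopogonis Tuber (Liriopis). The control was dimethyl sulfoxide (Vehicle), and each of the 20 groups held 3 libraries. The vehicle strength is 0.1% in the sample labels and 2% in the design text. Labels of treated groups give none, so treated cells and Vehicle may also have differed in solvent. According to the design text, toxic extracts were used at lower concentrations, while every label states 20, 100 or 500 µg/mL; the labelled doses are used here. It also says that libraries without results at low RNA concentration were left out. Separate cultures for the 3 libraries of a group are not stated, and p-values then measure only the spread between these libraries, which may be technical.

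Libraries held 17.7 to 30.6 M counts. Of 6 epithelial and A549 markers, KRT8, KRT18 and AKR1B10 were at 2182 CPM or more in every library (counts relative to the TMM-scaled depth of the library). KRT19 was at 22.9 to 44.4 CPM, CDH1 at 26.4 to 35.9 CPM and EPCAM at 3.65 to 6.37 CPM. Of the erythroid markers, HBA1 was at 0 to 0.351 CPM and was at 0 in 4 libraries, while HBB, HBA2 and ALAS2 were at most at 0.230 CPM and were at 0 in 47 to 53 libraries. The blood marker CD68 was at 6.89 to 23.9 CPM and the fibroblast marker COL1A1 at 18.4 to 34.5 CPM, both above EPCAM, while PTPRC, COL1A2 and DCN were at most at 0.125 CPM. Library sets, read from the library names, follow the treatments: Vehicle, wortmannin, Schisandrae with Liriopis, Zizyphi with Longan, and Polygalae with Aucklandiae form a set each. In a comparison with Vehicle, set and treatment therefore cannot be told apart. The 3 libraries of Polygalae 20 µg/mL and libraries 1 and 3 of Liriopis 500 µg/mL stood apart from the rest, with a median absolute log2 difference from their 2 partner libraries more than 1.4 times that of the median library.

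Heme is built from glycine and succinyl-CoA, with ALAS1 catalysing the first step outside red cells and FECH inserting iron at the last. HMOX1 opens the heme ring and frees iron, carbon monoxide and biliverdin, which the reductase BLVRA takes on. BLVRB is also called a biliverdin reductase, but use of the biliverdin from HMOX1 is not assumed for it. Freed iron is stored in ferritin, a shell of FTL and FTH1 subunits, or leaves the cell through ferroportin (SLC40A1), while the transferrin receptor TFRC brings iron in and SLC48A1 carries heme out of endosomes and lysosomes. Iron regulatory proteins bind stem-loops called iron-responsive elements: in iron-poor cells this blocks translation of ferritin and ferroportin messages and protects the TFRC message from decay. Transcription of HMOX1 and of the ferritin genes is raised by NRF2 and held down by BACH1.

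The iron-responsive elements of FTL, SLC40A1 and TFRC are shown because these transcripts include a member on each side of that control, ferritin and ferroportin on one and the receptor on the other. They were found in GENCODE release 29 transcripts (GRCh38) by a rule: a C, 5 bases, the loop CAGTGN with a last base other than G, and 5 bases that pair with the 5 before the loop, G-T pairs allowed. Capitals mark the 6-base loop.
FTL, 5′ UTR, chr19:48965339-48965360, plus strand: tgcttcaaCAGTGTttggacgg
SLC40A1, 5′ UTR, chr2:189580664-189580685, minus strand: ttcagctaCAGTGTtagctaag
TFRC, 3′ UTR, chr3:196050982-196051003, minus strand: atcggaagCAGTGCcttccata
TFRC, 3′ UTR, chr3:196050578-196050599, minus strand: atcgggagCAGTGTcttccata
TFRC, 3′ UTR, chr3:196050513-196050534, minus strand: atcggagaCAGTGAtctccata
TFRC, 3′ UTR, chr3:196050466-196050487, minus strand: atcgggaaCAGTGTttcccata
FTL and SLC40A1 had 1 match each and TFRC had 4, and elements that depart from the rule are missed. FTH1 and the other members were not read for such elements here. Of 19669 protein-coding genes, 1.09% had at least 1 match anywhere in a transcript. A match is a likeness of letters, and the RNA levels below do not show how well the messages were translated.

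Levels of the members differed widely. Per kilobase of exon in Vehicle cells, FTL stood at 9765 ± 102 CPM (mean ± SD, n = 3) and FTH1 at 1808 ± 163 CPM. BLVRB followed at 61.7 ± 1.53, HMOX1 at 60.2 ± 0.985 and TFRC at 42.0 ± 0.257 CPM per kilobase. ALAS1, BLVRA, FECH, SLC48A1 and SLC40A1 were lower still, with SLC40A1 lowest at 6.50 ± 0.0736 CPM per kilobase. All levels below are CPM without the division by length and compare groups, not genes.

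HMOX1 (ENSG00000100292; GRCh38 chromosome 22, 35380361 to 35394214) had the widest range of the 10 genes, 2.72-fold between its lowest and highest group means. The 3 wortmannin libraries had 86.2, 86.8 and 91.5 CPM, against 142, 146 and 146 CPM in Vehicle. This is a log2 difference of -0.72 ± 0.045 (SE of the model), and no other group came as low. With Polygalae, HMOX1 had 161, 158 and 144 CPM at 20 µg/mL, 199, 215 and 214 CPM at 100 µg/mL, and 230.3, 252 and 238 CPM at 500 µg/mL. The lowest dose overlapped Vehicle, and no 2 of the 3 doses overlapped each other. The log2 difference from Vehicle at 500 µg/mL was 0.73 ± 0.043.

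Aucklandiae gave 142, 137 and 135 CPM of HMOX1 at 20 µg/mL, 143, 148 and 139 CPM at 100 µg/mL and 189.6, 197 and 177 CPM at 500 µg/mL. Here only the top dose lay above Vehicle, by 0.38 ± 0.043 on the log2 scale, and the lower doses overlapped it. Schisandrae gave 161, 163 and 162 CPM at 20 µg/mL, 168, 161 and 167 CPM at 100 µg/mL and 187, 173 and 177 CPM at 500 µg/mL. All 9 Schisandrae libraries were above the 3 Vehicle libraries, by a log2 difference of 0.30 ± 0.043 at the top dose. Because these libraries form a set of their own, the offset at 20 µg/mL and a set difference cannot be told apart.

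Zizyphi 500 µg/mL averaged 152 ± 7.28 CPM of HMOX1 and overlapped Vehicle (145 ± 2.37 CPM; SD, n = 3 each). Longan 500 µg/mL averaged 160.2 ± 8.96 CPM and Liriopis 500 µg/mL 156 ± 2.20 CPM, both without overlap with Vehicle. Ordered by mean, Polygalae 500 µg/mL was highest and did not overlap the next, Polygalae 100 µg/mL, which did not overlap Aucklandiae 500 µg/mL. Aucklandiae 500 and Schisandrae 500 µg/mL overlapped each other, and Schisandrae 500 µg/mL was clear of Schisandrae 100 µg/mL. From the fifth to the 19th place every group overlapped the next one in the order, so neighbours there cannot be ordered. Some groups farther apart in that run did not overlap. Those in the 5th to the 8th place, Schisandrae 100 and 20, Longan 500 and Liriopis 500 µg/mL, were clear of Vehicle in the 17th. So was Zizyphi 100 µg/mL in the 13th. All of them are in other library sets than Vehicle, so treatment and set cannot be told apart. The share of all genes without overlap was not computed. Within the 9 libraries of each extract, which need no Vehicle, the slope of HMOX1 per 5-fold step of dose was 0.32 ± 0.034 for Polygalae, 0.22 ± 0.040 for Aucklandiae and 0.07 ± 0.019 for Schisandrae (log2 ± SE). The slopes were 0.05 ± 0.025 for Longan, 0.03 ± 0.016 for Zizyphi and 0.01 ± 0.022 for Liriopis.

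**Figure D1:**
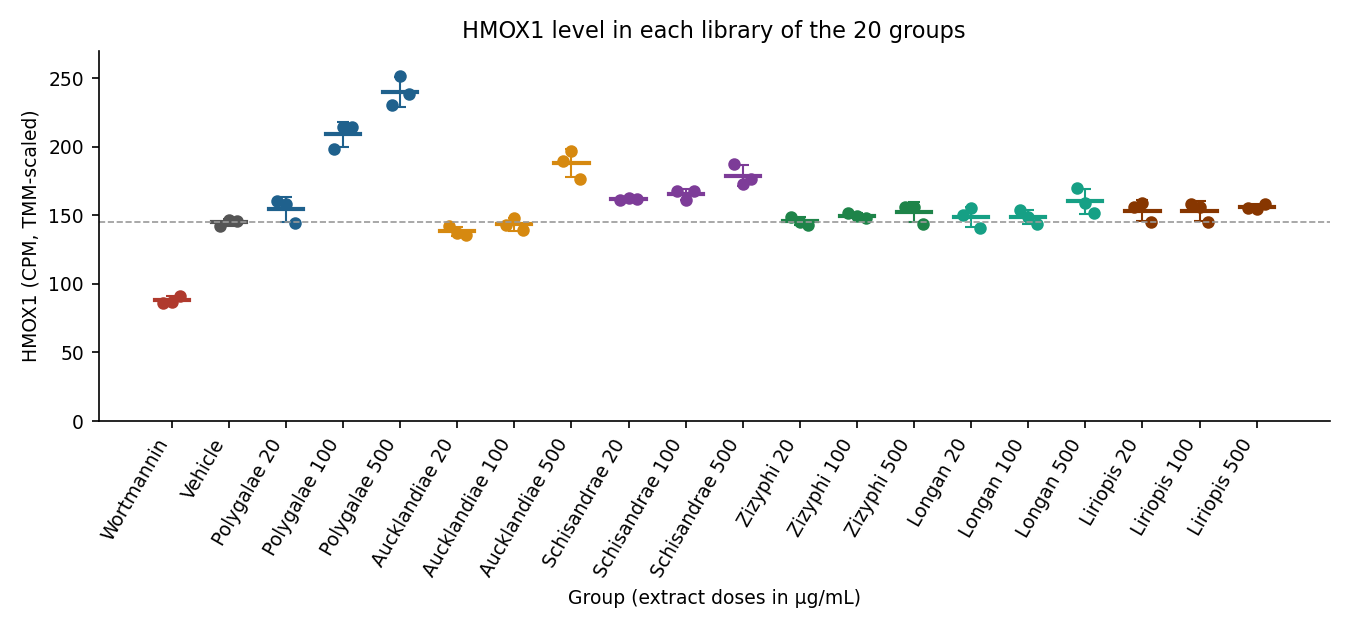
HMOX1 level (CPM with TMM-scaled library sizes, linear axis) in each of the 60 libraries by group, with points for libraries, thick lines for means and bars for SD (n = 3), and the dashed line at the Vehicle mean of 145 CPM. Wortmannin lies lowest at 86.2 to 91.5 CPM, and Polygalae 500 µg/mL highest at 230.3 to 252 CPM.

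With wortmannin, the ferritin light chain, the transferrin receptor and the first enzyme of heme synthesis fell and ferroportin rose. By edgeR's quasi-likelihood test with Benjamini-Hochberg adjustment over all tested genes, 6 of the 9 members passed an adjusted p of 0.05, 2 of them higher and 4 lower. Of all tested genes 37.4% passed, 18% higher and 19.5% lower, in this comparison, which HMOX1 was picked from. The members' median log2 difference was -0.09, beside 0.01 over all tested genes.

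FTL (ENSG00000087086; chromosome 19, 48965301 to 48966878), the ferritin light chain, had 6056, 5960.3 and 5702 CPM with wortmannin, against 8592, 8476 and 8652 CPM in Vehicle. The groups did not overlap, and the log2 difference was -0.54 ± 0.057 (adjusted p = 9.26e-11). FTH1 (ENSG00000167996; chromosome 11, 61959718 to 61967660), the heavy chain that oxidises iron for storage, had 3319, 3408 and 3372 CPM with wortmannin, against 3289, 3876 and 3846 CPM in Vehicle. Vehicle library 1 lay below all wortmannin libraries and the other 2 above them, and the test was not passed (log2 -0.12 ± 0.057, adjusted p = 0.0828). FTH1 passed without Vehicle library 1, at -0.19 (adjusted p = 0.00733), with no filter on low counts, at -0.13 (adjusted p = 0.00928), and without the 5 libraries that stand apart, at -0.12 (adjusted p = 0.0494). In the 10 other alternatives run it did not. Whether the 2 ferritin chains differed in their response was not tested.

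TFRC (ENSG00000072274; chromosome 3, 196027183 to 196082189) had 258, 249 and 254 CPM with wortmannin, against 332, 329 and 332 CPM in Vehicle. Its fall of -0.38 ± 0.037 on the log2 scale (adjusted p = 8.82e-13) came with SDs of 4.45 and 2.02 CPM in the 2 groups. SLC40A1 (ENSG00000138449; chromosome 2, 189560579 to 189583758) went the other way, with 39.6, 38.6 and 37.0 CPM in wortmannin cells, against 28.3, 28.3 and 27.8 CPM in Vehicle cells. Ferroportin was 0.45 ± 0.046 higher on the log2 scale (adjusted p = 4.84e-12), and no extract group had a mean above 29.7 CPM. The messages of FTL and SLC40A1, whose elements in the 5′ UTR share the loop letters shown above, moved in opposite directions. Control through these elements was not tested.

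ALAS1 (ENSG00000023330; chromosome 3, 52198086 to 52214327) had 50.3, 50.9 and 51.2 CPM with wortmannin, against 63.6, 63.4 and 65.5 CPM in Vehicle. The fall was -0.34 ± 0.035 (log2, adjusted p = 5.55e-12), with no overlap. FECH (ENSG00000066926; chromosome 18, 57548283 to 57586772) had 59.3, 60.7 and 60.02 CPM with wortmannin, against 63.3, 65.5 and 62.8 CPM in Vehicle. Its difference of -0.09 ± 0.037 (adjusted p = 0.0465) was past the threshold by little and was lost without any of the 6 libraries, with adjusted p from 0.0559 to 0.21. The FECH call was also lost with no filter on low counts (adjusted p = 0.192).

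BLVRA (ENSG00000106605; chromosome 7, 43758680 to 43807342) had 39.4, 37.2 and 36.7 CPM with wortmannin, against 34.6, 33.4 and 34.9 CPM in Vehicle. It rose by 0.14 ± 0.056 (log2, adjusted p = 0.0437). That call too was lost without Vehicle library 1, 2 or 3 or wortmannin library 1 or 2, with adjusted p from 0.0554 to 0.204. With all libraries kept, it was lost in DESeq2 (adjusted p = 0.065), with DESeq2 size factors (0.0507) and with no filter on low counts (0.0671). BLVRB, the other biliverdin reductase (ENSG00000090013; chromosome 19, 40447765 to 40465840), averaged 102 ± 2.71 CPM with wortmannin and 104 ± 2.59 CPM in Vehicle, and SLC48A1 (ENSG00000211584; chromosome 12, 47753916 to 47782753) 51.4 ± 2.25 and 49.3 ± 0.384 CPM. Neither passed the test (adjusted p = 0.597 and 0.239), and for both the groups overlapped.

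**Figure D2:**
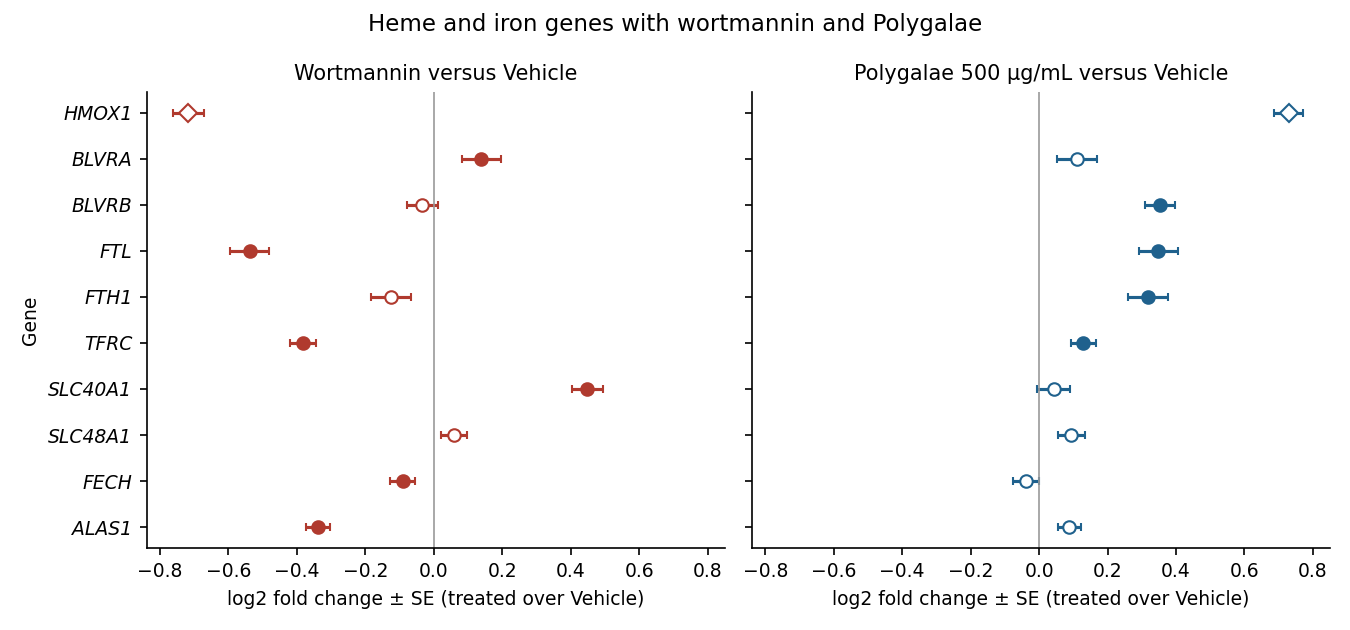
Log2 fold change over Vehicle (± SE of the model) of the 10 genes with wortmannin on the left and with Polygalae 500 µg/mL on the right; filled circles passed an adjusted p of 0.05, open circles did not, and the diamond is HMOX1, which was not tested. FTL is at -0.54 with wortmannin and 0.35 with Polygalae, and SLC40A1 at 0.45 and 0.04.

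With Polygalae 500 µg/mL, both ferritin chains, the biliverdin reductase BLVRB and TFRC rose, and no member fell. These were 4 of the 9 members (edgeR, adjusted p under 0.05), and 19.9% of all tested genes passed (10.4% higher and 9.48% lower) in this comparison, which HMOX1 was also picked from. The members' median log2 difference was 0.11, beside 0.00 over all tested genes. The comparison shares its Vehicle libraries with that of wortmannin.

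BLVRB had 124, 139 and 136 CPM with Polygalae 500 µg/mL, against 104, 107 and 101 CPM in Vehicle, a log2 difference of 0.35 ± 0.045 (adjusted p = 7.22e-09). FTL had 10432, 11368 and 10946 CPM with Polygalae 500 µg/mL, against 8592, 8476 and 8652 CPM in Vehicle. All 3 treated libraries were above Vehicle, by 0.35 ± 0.057 on the log2 scale (adjusted p = 4.97e-06). FTH1 had 4537, 4618 and 4577 CPM with Polygalae 500 µg/mL, against 3289, 3876 and 3846 CPM in Vehicle. It was clear of Vehicle with or without the low Vehicle library, at 0.32 ± 0.057 (adjusted p = 3.17e-05).

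TFRC rose by less, with 364, 359 and 363 CPM at Polygalae 500 µg/mL, against 332, 329 and 332 CPM in Vehicle (log2 0.13 ± 0.037, adjusted p = 0.00768). With no filter on low counts it missed the threshold by little (adjusted p = 0.0502). ALAS1, at 66.6, 70.0 and 68.0 CPM with Polygalae 500 µg/mL and 63.6, 63.4 and 65.5 CPM in Vehicle, did not overlap but missed the threshold (log2 0.09 ± 0.035, adjusted p = 0.0623). BLVRA and SLC48A1 were also without overlap and did not pass, at log2 differences of 0.11 ± 0.058 and 0.09 ± 0.039. SLC40A1 and FECH overlapped Vehicle, at 0.04 ± 0.049 and -0.04 ± 0.038.

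The lower Polygalae doses held part of this pattern. At 100 µg/mL, where 12.8% of tested genes passed, BLVRB (0.40 ± 0.045, adjusted p = 4.11e-10), FTH1 (0.26 ± 0.057, adjusted p = 0.00109) and FTL (0.25 ± 0.057, adjusted p = 0.00147) were higher than in Vehicle. In the 6 libraries of that comparison alone, the FTH1 call was lost (adjusted p = 0.0617), while BLVRA (0.0388) and TFRC (0.0111) passed as higher. TFRC also passed without the 5 libraries that stand apart (adjusted p = 0.00791). FECH, at 61.0, 55.8 and 62.0 CPM there, passed as lower only without Polygalae 100 µg/mL library 3 (adjusted p = 0.0409). At 20 µg/mL, where 12.1% of tested genes passed, BLVRB (0.25 ± 0.045, adjusted p = 0.000206) and BLVRA (0.19 ± 0.057, adjusted p = 0.0236) passed. Both calls were lost in the 6 libraries alone (adjusted p = 0.305 and 0.371), and all 3 libraries of this group stood apart. That of BLVRA was lost as well without Polygalae 20 µg/mL library 1 or Vehicle library 1 or 2 (adjusted p from 0.0519 to 0.344).

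Library 1 of Polygalae 20 µg/mL differed most. It had 10072 CPM of FTL where libraries 2 and 3 had 7779.9 and 8184 CPM, and 4546 CPM of FTH1 where they had 3671 and 3583 CPM. It had 297 CPM of TFRC where they had 348 and 347 CPM. Its ferritin messages were above, and its TFRC message below, those of both partners. In the edgeR slopes over the Polygalae libraries with the filter on low counts, FTL and FTH1 passed only without that library. Over the 9 Polygalae libraries no member passed, while 5.03% of tested genes did. DESeq2 called 2 of the 9 members, beside 1185 of all tested genes. At an unadjusted p under 0.05 there were 4 members. Here and below, the share of all tested genes at that unadjusted threshold was not computed, so such counts have no base. FTL had a slope of 0.16 ± 0.045 per 5-fold step (log2, adjusted p = 0.0517) and FTH1 one of 0.11 ± 0.040 (adjusted p = 0.149). Without that library, FTL rose by 0.215 (adjusted p = 0.00159) and FTH1 by 0.159 (adjusted p = 9.11e-05) per step. Other settings that kept the library also gave calls. FTL passed with no filter on low counts (adjusted p = 0.0263), in DESeq2 (0.00454) and in slopes from all 60 libraries (1.74e-05). FTH1 and TFRC passed in slopes from all 60 libraries (adjusted p = 0.00484 and 0.00856). ALAS1 had a slope of 0.07 ± 0.022 (adjusted p = 0.0722), with 59.9, 62.6 and 62.1 CPM at 20 µg/mL, 64.0, 65.6 and 66.3 CPM at 100 µg/mL and 66.6, 70.0 and 68.0 CPM at 500 µg/mL. It passed in DESeq2 (adjusted p = 0.0411) and in slopes from all 60 libraries (adjusted p = 0.00127).

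**Figure D3:**
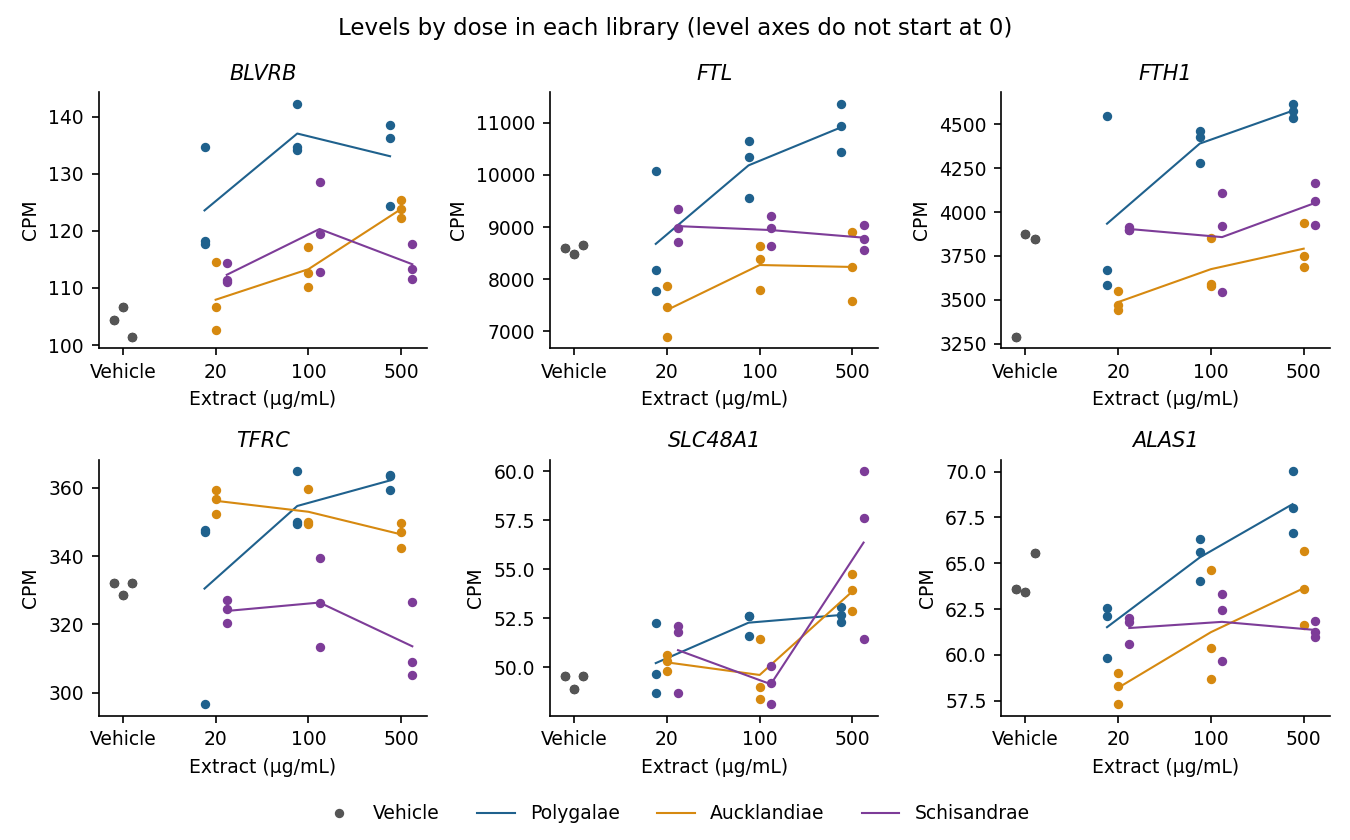
Levels (CPM, axes not starting at 0) of 6 members in each library of Vehicle and of Polygalae, Aucklandiae and Schisandrae at 20, 100 and 500 µg/mL; points are libraries and lines join the group means. FTL reaches 10432 to 11368 CPM with Polygalae 500 µg/mL, against 7581 to 8898 CPM with Aucklandiae 500 µg/mL, and 1 Polygalae 20 µg/mL library lies at 10072 CPM.

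With Aucklandiae 500 µg/mL, BLVRB rose and ferritin did not pass the test. Of the 9 members 2 were higher and none lower, where 4.94% of all tested genes passed, 2.24% higher and 2.7% lower (edgeR, adjusted p under 0.05). HMOX1 was picked from this comparison as well. BLVRB had 122, 125 and 124 CPM at Aucklandiae 500 µg/mL, against 104, 107 and 101 CPM in Vehicle (log2 0.25 ± 0.045, adjusted p = 0.000157). It also rose with dose within the Aucklandiae libraries, by 0.10 ± 0.018 per 5-fold step (adjusted p = 0.00285) where 0.967% of tested genes passed. SLC48A1, the heme carrier of endosomes, had 52.9, 54.8 and 53.96 CPM at 500 µg/mL, against 49.6, 48.9 and 49.5 CPM in Vehicle (0.13 ± 0.039, adjusted p = 0.0392). Its call was lost without any of the 6 libraries, with adjusted p from 0.0598 to 0.149, and with no filter on low counts (adjusted p = 0.229).

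FTL had 7581, 8898 and 8229 CPM at Aucklandiae 500 µg/mL, against 8592, 8476 and 8652 CPM in Vehicle, which overlap (log2 -0.06 ± 0.057, adjusted p = 0.637). FTH1 overlapped Vehicle too, at 0.05 ± 0.057 (adjusted p = 0.723). At 20 µg/mL, where 2.99% of tested genes passed, FTL was lower than Vehicle by -0.21 ± 0.057 (adjusted p = 0.03) and ALAS1 by -0.14 ± 0.035 (adjusted p = 0.0159). Leaving out Vehicle library 1, 2 or 3 or Aucklandiae 20 µg/mL library 1 or 2 ended the FTL call (adjusted p from 0.0647 to 0.201), and leaving out Vehicle library 3 or Aucklandiae 20 µg/mL library 2 ended that of ALAS1 (0.0665 and 0.0772). The ALAS1 call was also lost with no filter on low counts (adjusted p = 0.0663). At 100 µg/mL, where 2.04% of tested genes passed in edgeR, no member did, and 2 had an unadjusted p under 0.05. In the libraries of that comparison alone, TFRC (0.09, adjusted p = 0.0324) and BLVRB (0.12, adjusted p = 0.0233) passed as higher. TFRC also passed at 20 µg/mL in the libraries of that comparison alone (0.10, adjusted p = 0.0215). Without the 5 libraries that stand apart, TFRC passed at both doses (adjusted p = 0.0423 at 100 and 0.0139 at 20 µg/mL).

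Polygalae and Aucklandiae libraries are of the same set, so the extracts were also compared directly at 500 µg/mL. FTL was higher with Polygalae than with Aucklandiae by 0.41 ± 0.057 (log2, adjusted p = 2.4e-07) and FTH1 by 0.27 ± 0.057 (adjusted p = 0.000395), with no overlap for either. HMOX1, described without a test, was 0.35 ± 0.043 higher with Polygalae, at 230.3 to 252 CPM against 177 to 197 CPM. BLVRB did not pass (0.10 ± 0.045, adjusted p = 0.118), with overlapping libraries. It did without Polygalae 500 µg/mL library 1 (0.15, adjusted p = 0.0285) and in the libraries of the comparison alone (adjusted p = 0.0325). ALAS1 was higher (0.10 ± 0.035, adjusted p = 0.0412) and FECH lower (-0.12 ± 0.038, adjusted p = 0.0192), which makes 4 of 9 members where 15.2% of all tested genes passed. The ALAS1 call was lost without Polygalae library 2 or 3 or Aucklandiae library 1 or 3 (adjusted p from 0.0802 to 0.216), and the FECH call without Polygalae library 1 or Aucklandiae library 1 or 3 (0.052 to 0.119). With no filter on low counts both were lost (adjusted p = 0.37 and 0.099). That of ALAS1 was lost as well in DESeq2 (0.0598) and in the libraries of the comparison alone (0.0609).

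With Schisandrae 500 µg/mL, SLC48A1 was the 1 member of 9 that passed, where 0.478% of all tested genes did, in a comparison that HMOX1 was picked from. It had 57.6, 51.5 and 60.002 CPM with Schisandrae 500 µg/mL, against 49.6, 48.9 and 49.5 CPM in Vehicle (log2 0.19 ± 0.038, adjusted p = 0.00678). Library 2 was close to Vehicle, and the call was lost without Vehicle library 2 or Schisandrae library 1 or 3 (adjusted p from 0.0543 to 0.182). BLVRB passed as higher only in the libraries of the comparison alone (0.13, adjusted p = 0.031). At 100 µg/mL, where 1.4% of tested genes passed, BLVRB was higher by 0.21 ± 0.045 (adjusted p = 0.0122), with 119.5, 113 and 129 CPM, against 104, 107 and 101 CPM in Vehicle. That call was lost without Schisandrae 100 µg/mL library 3 or Vehicle library 1 or 3 (adjusted p from 0.0657 to 0.291). FTL and FTH1 did not pass at any Schisandrae dose, and no member changed with dose (edgeR, where 0.0403% of tested genes passed, 2 of 9 at an unadjusted p under 0.05 and none in DESeq2).

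Against Liriopis 500 µg/mL, which is in the same library set, no member differed with Schisandrae 500 µg/mL (edgeR, 1 of 9 at an unadjusted p under 0.05 and none in DESeq2, with 0.328% of tested genes passing). HMOX1 had 187, 173 and 177 CPM with Schisandrae there and 155, 154 and 158 CPM with Liriopis, without overlap. SLC40A1, at 29.4, 29.6 and 30.2 CPM with Schisandrae and 26.9, 27.8 and 23.8 CPM with Liriopis, missed the threshold (0.18 ± 0.049, adjusted p = 0.0901). Among the alternatives run it passed only without Liriopis library 2 (0.22, adjusted p = 0.041).

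None of the 9 members passed with Zizyphi, Longan or Liriopis at 500 µg/mL. In edgeR, 1.81% of tested genes passed with Zizyphi, 0.104% with Longan and 0.00576% with Liriopis. At an unadjusted p under 0.05, 1 member was past the threshold with Zizyphi, 1 with Longan and 4 with Liriopis. The share of all tested genes at that threshold was not computed, so nothing is drawn from these counts. DESeq2 called none of the members in the 3 comparisons, beside 362, 80 and 11 of all tested genes. Liriopis 500 µg/mL, of which 2 libraries stood apart, had the highest ferritin of these 3 extracts, with 4079, 4012 and 4268 CPM of FTH1, against 3289, 3876 and 3846 CPM in Vehicle. With no filter on low counts FTH1 passed there (0.16, adjusted p = 0.0164). Zizyphi and Longan at 500 µg/mL did not differ from each other in any member by edgeR (none at an unadjusted p under 0.05, none in DESeq2, 0.213% of tested genes). In the dose slopes of these 3 extracts no member passed in edgeR either, where 0.351% of tested genes did with Zizyphi, 0.0345% with Longan and 0.0461% with Liriopis. At an unadjusted p under 0.05 there were 1, 0 and 3 members. DESeq2 called 13 of all tested genes with dose of Liriopis, FTL among them (0.09 per 5-fold step, adjusted p = 4.32e-08). For FTL, edgeR gave 0.09 ± 0.020 and an adjusted p of 0.299. Over the lower doses of all 6 extracts, 4 of 54 member tests passed at 20 µg/mL and 4 of 54 at 100 µg/mL, all of them given above. Among the groups without a call in edgeR, Zizyphi at 20 and 100 µg/mL had 0.363% and 0.599% of tested genes past the threshold, Longan 0.0173% and 0.132%, Liriopis 0.0864% and 0.00576%, and Schisandrae 20 µg/mL 0.196%. In those 7 groups, 2, 2, 0, 1, 0, 1 and 1 of the 9 members had an unadjusted p under 0.05, in the same order. In the libraries of the comparison alone, FTL passed as lower with Zizyphi 100 µg/mL (adjusted p = 0.0176) and with Longan 20 µg/mL (0.00753).

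**Figure D4:**
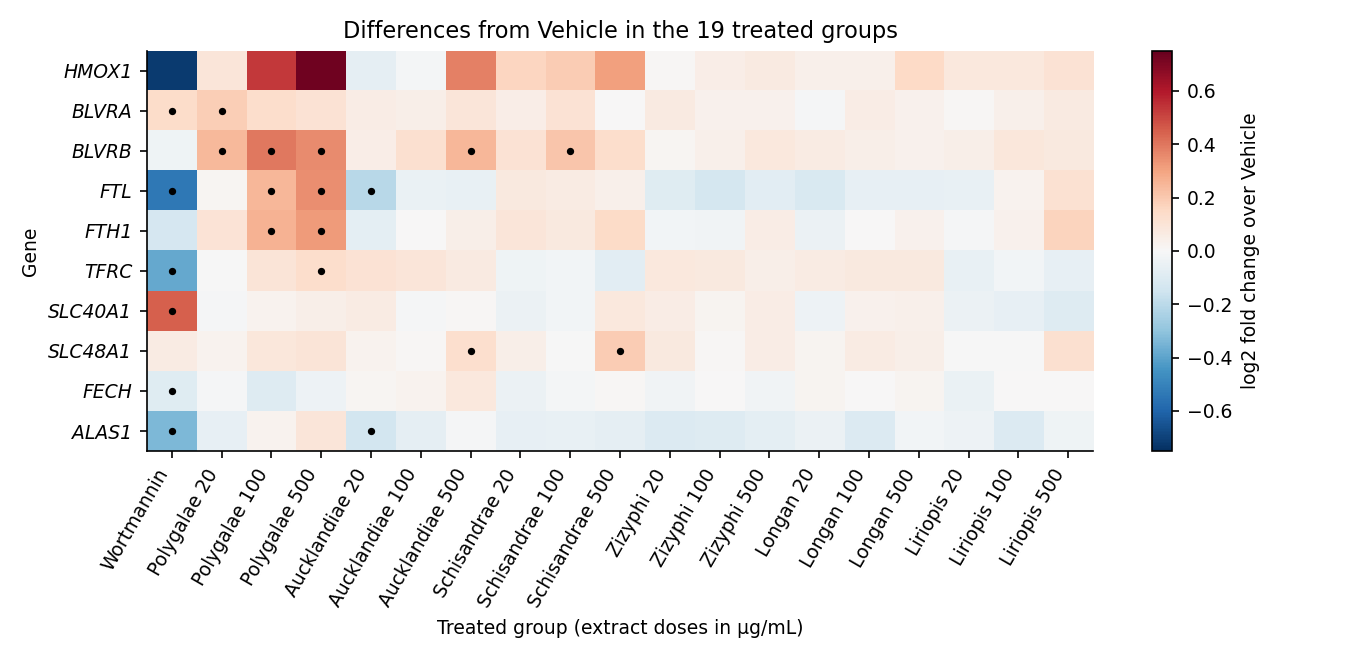
Log2 fold change over Vehicle of the 10 genes (rows) in the 19 treated groups (columns), from blue (lower) to red (higher), with a dot where the gene passed an adjusted p of 0.05; HMOX1 was not tested. Dots are densest with wortmannin (6) and Polygalae 500 µg/mL (4), and the columns of Zizyphi, Longan and Liriopis have none.

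Beyond the 10 genes, a list of 59 further heme and iron genes was read, of which 54 were tested. This list too was chosen with earlier results of these data known. With wortmannin 9 rose and 17 fell, where 18% of all tested genes were higher and 19.5% lower, and the median log2 difference was -0.01, beside 0.01 over all tested genes. The counts in the smaller groups of 11, 9 and 6 genes below are to be read against the same shares, and nothing particular to those groups is drawn from them. Of 11 tested genes for heme synthesis and mitochondrial heme transport, 2 rose and 4 fell, among them the porphyrin transporter ABCB6 (-0.42 ± 0.042, adjusted p = 4.11e-12) and SLC25A38, which brings glycine into mitochondria (-0.29 ± 0.053, adjusted p = 8.68e-06). Of 9 iron uptake genes 3 rose, including the ferric reductases CYBRD1 (0.52 ± 0.033, adjusted p = 7.91e-20) and STEAP2 (0.43 ± 0.058, adjusted p = 1.05e-08), while the importer SLC39A14 fell (-0.32 ± 0.033, adjusted p = 4.92e-12). The mitochondrial iron importer SLC25A37 rose (0.32 ± 0.046, adjusted p = 5.13e-08), as did BMP6, a hepcidin-inducing ligand in liver (0.29 ± 0.071, adjusted p = 0.000911). Of 6 regulators of HMOX1, 1 rose and 4 fell, with the small MAF partner MAFK lowest (-0.34 ± 0.035, adjusted p = 4.92e-12).

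With Polygalae 500 µg/mL 16 of the 54 rose and 2 fell, where 10.4% of all tested genes were higher and 9.48% lower, with a median of 0.07, beside 0.00 over all tested genes. The largest rises were of LCN2, a siderophore-binding protein (0.87 ± 0.251, adjusted p = 0.00807), the heme transporter family gene FLVCR2 (0.57 ± 0.115, adjusted p = 0.000115), CYBRD1 (0.44 ± 0.034, adjusted p = 3.31e-16) and the small MAF gene MAFF (0.42 ± 0.105, adjusted p = 0.00204). LCN2 was near the detection range, at 1.43 ± 0.361 CPM with Polygalae and 0.781 ± 0.212 CPM in Vehicle, and its call was lost without Vehicle library 1 or Polygalae 500 µg/mL library 1 (adjusted p = 0.0719 and 0.0855). The falls were of MAFK (-0.12 ± 0.036, adjusted p = 0.00776) and the iron chaperone PCBP2 (-0.11 ± 0.025, adjusted p = 0.000945), and that of MAFK was lost without Vehicle library 3 (adjusted p = 0.0578). BACH1, the repressor of HMOX1, was singled out after its values were seen: it was higher both with Polygalae 500 µg/mL (0.41 ± 0.065, adjusted p = 1.81e-06) and with wortmannin (0.25 ± 0.064, adjusted p = 0.00107), comparisons that share their Vehicle libraries.

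With Aucklandiae 500 µg/mL 3 of the 54 passed, a share near the 4.94% of all tested genes. KEAP1, a partner of NRF2, rose (0.17 ± 0.041, adjusted p = 0.00509), the cysteine desulfurase NFS1 rose (0.15 ± 0.046, adjusted p = 0.0448) and NFE2L2, the NRF2 gene, fell (-0.18 ± 0.034, adjusted p = 0.000313). Whether the KEAP1 protein works normally in this line, and how active NRF2 was, were not measured. The NFS1 call was lost without Vehicle library 2 or 3 or any Aucklandiae 500 µg/mL library (adjusted p from 0.0943 to 0.345). It was also lost in the libraries of the comparison alone (adjusted p = 0.0513), in DESeq2 (0.0575) and with no filter on low counts (0.187). With Zizyphi 500 µg/mL 3 passed, where 1.81% of all tested genes did, CYBRD1 higher (0.17 ± 0.034, adjusted p = 0.00202), and BMP6 (-0.44 ± 0.077, adjusted p = 0.000368) and NFE2L2 (-0.17 ± 0.034, adjusted p = 0.00202) lower. None passed in edgeR with Schisandrae, Longan or Liriopis at 500 µg/mL. DESeq2 called 1, 1 and 0 there, beside 124, 80 and 11 of all tested genes. At an unadjusted p under 0.05 there were 6, 10 and 5, with no share of all tested genes computed.

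The 6 further NRF2 target genes read beside HMOX1 were chosen with earlier results of these data known. Of them, GCLM, TXNRD1, SRXN1 and OSGIN1 fell with wortmannin, where 19.5% of all tested genes were lower. Their log2 differences were -0.25 ± 0.040, -0.10 ± 0.034, -0.41 ± 0.034 and -0.58 ± 0.049 (adjusted p = 5.22e-07, 0.0202, 3.05e-15 and 4.42e-15, edgeR). With Polygalae 500 µg/mL GCLM (0.25 ± 0.039), TXNRD1 (0.20 ± 0.034) and SRXN1 (0.16 ± 0.034) rose, where 10.4% of all tested genes were higher. With Aucklandiae 500 µg/mL GCLM did (0.25 ± 0.039), where 2.24% of all tested genes were higher. NQO1 and SLC7A11 passed in none of these 3 comparisons. OSGIN1 was lower with Zizyphi 500 µg/mL than in Vehicle (-0.24 ± 0.048, adjusted p = 0.00287), where 1.81% of all tested genes passed. In the direct comparison at 500 µg/mL, TXNRD1 (0.20 ± 0.034, adjusted p = 9.51e-06) and SRXN1 (0.14 ± 0.034, adjusted p = 0.00131) were higher and NQO1 lower (-0.12 ± 0.040, adjusted p = 0.0329) with Polygalae than with Aucklandiae. There, 15.2% of all tested genes passed.

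Group means of HMOX1 over the 20 groups were most like those of ELK1, a transcription factor gene, among 10982 genes with a mean of at least 5 CPM (Pearson r = 0.950 of mean log2 CPM). FTL came next (0.909), before POR, the electron donor of heme oxygenase (0.906), EGLN2, an iron-dependent prolyl hydroxylase (0.905), and RAB3IL1 (0.902). ALAS1 (0.902), FTH1 (0.842), BLVRB (0.785) and TFRC (0.661) followed among the members, and SLC40A1 had the lowest value (-0.585). These are descriptions over group means that share library sets and treatments. They include the wortmannin, Polygalae, Aucklandiae and Schisandrae groups that HMOX1 was picked from. The 16 groups without wortmannin and Polygalae still hold Aucklandiae and Schisandrae, so values over them are not free of that choice. Over these 16 groups, r was 0.752 for RAB3IL1, 0.652 for POR and 0.642 for ELK1, but 0.0696 for EGLN2. Among the members it was 0.753 for BLVRB, 0.645 for FTH1, 0.623 for SLC48A1, 0.460 for ALAS1, 0.457 for FTL, 0.333 for FECH, 0.252 for BLVRA, -0.01 for SLC40A1 and -0.421 for TFRC.

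Promoter windows of 250 bases before to 50 after the start (RefSeq, GRCh38.p14) were read for 8 of the 10 members, all but HMOX1 and FTH1. On either strand, the antioxidant response core TGACNNNGC was found in FECH, 38 bases before the start, and in none of the 7 others, beside 13.3% of 35116 promoters of the same length. The E-box CACGTG was in none of the 8 (7.26% of all), and the SP1 box GGGCGG in all 8, with 2 to 6 matches each (45.0% of all). No match says only that the letters are not in this window.

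Ferritin has many processed gene copies, and reads that fit several genes were shared out by the authors' counting. The 25 FTH1P copies listed summed to 0.248 to 1.34% of the FTH1 count of a library and the 16 FTLP copies to 0.0503 to 0.454% of the FTL count. Adding them to FTH1 and FTL ended or added no call of a member. In bulk RNA, a larger share of cells that express a gene and more RNA per cell cannot be told apart.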

How the data were processed

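RNA of 60 A549 libraries was measured in 1 table of expected counts (estimated counts that need not be whole), as the authors deposited it, with no depth scaling. Alignment and counting tools in the submitters' processing notes are STAR 2.7.3a and RSEM 1.3.3, after FastQC 0.11.9 and Trim Galore 0.6.5, on GRCh38; per the labels' protocols the libraries were strand-specific and paired-end. Not given in the sources used here are the annotation release and the strand setting, and genes with copies or antisense partners are therefore uncertain. Of the values, 10.7% were not whole, and all were rounded.

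Counts were analysed with edgeR 4.0.16 in R 4.3.3: filterByExpr over the 20 groups (17368 genes kept), TMM scaling and a robust quasi-likelihood model with 1 mean per group over all 60 libraries. Each treated group was compared with Vehicle, extracts of 1 library set with each other at 500 µg/mL, and dose was tested as a slope over 20, 100 and 500 µg/mL (0, 1 and 2) in the 9 libraries of an extract. Tests are two-sided, with Benjamini-Hochberg adjustment over all genes of a comparison and a threshold of 0.05. Depth was 17.7 to 30.6 M counts, median 24.6 M. Replicates were not copies of a library (chi-square per degree of freedom 2.03 to 25.3).

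The reference gene table named 41209 genes and GENCODE release 29 a further 15846, which left 3620 without a symbol. The members, the 59 further genes, the 6 NRF2 targets and the markers were chosen with earlier results of these data known. From the 59, the text names in each comparison with wortmannin or an extract at 500 µg/mL up to 4 rises and 4 falls of largest log2 size at an adjusted p under 0.05 and a mean of at least 1 CPM in a group. The alternatives were DESeq2 1.42.0 and its size factors, library size alone, no filter, the libraries of a comparison alone, slopes from all 60 libraries, ferritin copies added, a replicate block and each library left out. An alternative without the 5 libraries that stand apart was added after the data were seen. On simulated counts, the test of wortmannin recovered 80% of 100 genes changed 1.25-fold and 100% of 100 changed 1.5-fold, with 11 false calls among 17189 genes. The Polygalae slope test recovered 74% and 95%, with 9 false calls among 17368 genes. Changed genes had a mean of at least 5 CPM and all others were left unchanged. Recovery of genes at lower levels, or where many genes change, was therefore not tested.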

Additional observations from a re-analysis of the deposited data

How the results depend on the processing

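No result reversed. The 272 single-gene results were recomputed 3689 times in all: 3590 stayed on their side of the threshold, 65 lost a call and 34 gained one. In 130, a value that passed in neither setting changed sign. FTL, TFRC, ALAS1 and SLC40A1 with wortmannin, and BLVRB, FTL and FTH1 with Polygalae 500 µg/mL, passed in every alternative run.

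Leaving out each library in turn gave 4 to 5 members for wortmannin (6 with all libraries), 1 for Aucklandiae 500 µg/mL (2), 0 to 1 for Schisandrae 500 µg/mL (1), 2 to 4 over the extracts at 20 µg/mL (4) and 3 to 5 at 100 µg/mL (4). The range was 0 to 2 for the Polygalae slope (0), 2 to 4 for Polygalae against Aucklandiae (4) and 0 to 1 for Schisandrae against Liriopis (0). With no filter on low counts, 1 member passed for Aucklandiae 500 µg/mL, 1 for Liriopis 500 µg/mL, 2 for Polygalae against Aucklandiae, and 1, 2 and 2 in the slopes of Polygalae, Aucklandiae and Liriopis, and 2 of the wider list passed for Liriopis 500 µg/mL. In the libraries of the comparison alone, 2 members passed for Schisandrae 500 µg/mL and 8 over the extracts at 100 µg/mL, and 7, 1, 6 and 2 of the wider list passed for Aucklandiae, Schisandrae, Zizyphi and Longan at 500 µg/mL. Slopes from all 60 libraries called 4 members for Polygalae and 2 for Aucklandiae. DESeq2 called 2, 2 and 1 members in the slopes of Polygalae, Aucklandiae and Liriopis, beside 1185, 198 and 13 of all tested genes. It called 1 of the wider list for Schisandrae and 1 for Longan at 500 µg/mL, beside 124 and 80 of all tested genes. Without the 5 libraries that stand apart, 5, 1 and 1 of the wider list passed for Aucklandiae, Schisandrae and Longan at 500 µg/mL; Polygalae 20 µg/mL then had no library and no value. With library size alone, the HMOX1 difference for wortmannin was -0.65 on the log2 scale. The cause of these differences was not tested.

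Replicate numbers did not pair treated libraries with those of Vehicle. Same-numbered libraries of a treated group and Vehicle deviated together with r from -0.0551 to 0.0904 over 57 pairs. Pairing of same-numbered libraries within a library set was not looked at. With the replicate block, 6 members passed for wortmannin, 4 for Polygalae 500 µg/mL and 2 for Aucklandiae 500 µg/mL, as without it, and 1 of the wider list passed for Longan 500 µg/mL (0 without it). Low counts limit LCN2, whose SE of 0.251 was the largest among the named genes of the wider list.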
